A study of Mus musculus with 12 samples.

Results

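The genes described here were 10 transcripts of acute inflammation, taken by name from a table of 54532 genes measured by RNA-Seq in the mouse colon. They were the neutrophil attractants Cxcl1, Cxcl2 and Cxcl5, the monocyte attractant Ccl2, the cytokines Il1b and Tnf, the neutrophil and epithelial defense proteins S100a8, S100a9 and Lcn2, and Ptgs2, the inducible enzyme of prostaglandin synthesis. The 12 libraries came from 4 groups of 3 male wild-type C57BL/6J mice, 5 weeks old at the start. The control group drank regular water and received no drug. The model group drank 3% dextran sodium sulfate (DSS), a sulfated sugar polymer that damages the gut lining and is used to induce colitis. The Rhy group drank DSS and received rhynchophylline (Rhy), an alkaloid of the plant Uncaria rhynchophylla, by mouth each day for 7 days. The DXM group drank DSS and received the glucocorticoid dexamethasone at 4 mg/kg. It is known here from the sample labels, since the sequencing methods of the study name the other groups. The acute experiment used Rhy at 2, 4 and 8 mg/kg, and the dose given to the sequenced mice was not named in the sources used here. RNA was taken from sections of the whole colon, so every library mixes epithelium, muscle, stroma and blood cells.

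Neutrophils enter an inflamed colon along gradients of CXC chemokines that bind the receptor Cxcr2, while Ccl2 draws monocytes through the receptor Ccr2. Il1b and Tnf are released mainly by macrophages and other myeloid cells, and both switch on the transcription factor NF-kB, which in turn drives chemokine genes and Ptgs2. S100a8 and S100a9 form calprotectin, an abundant protein of the neutrophil cytoplasm, and Lcn2 encodes lipocalin 2, which withholds iron from bacteria. Both proteins are measured in stool as signs of gut inflammation.

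The 3 CXC chemokine genes lie within 146.6 kb of chromosome 5 in the mouse genome build GRCm38. Cxcl1 (ENSMUSG00000029380) spans 90891241 to 90893115 on the plus strand, Cxcl2 (ENSMUSG00000058427) spans 90903871 to 90905938 on the plus strand, and Cxcl5 (ENSMUSG00000029371) spans 90759360 to 90761624 on the plus strand. Promoter sequence was available from RefSeq on GRCm38.p6 for 8 of the 10 genes, Cxcl5 and Ccl2 being named only. The 120 bases before the RefSeq start are shown for Cxcl1 and Cxcl2, since these were the members whose promoter held the kappaB consensus, the letters that NF-kB binds. The capitals mark the match, which began 71 bases before the start in Cxcl1 (chr5:90891125-90891244, plus strand) and 97 bases before it in Cxcl2 (chr5:90903779-90903898, plus strand).
Cxcl1: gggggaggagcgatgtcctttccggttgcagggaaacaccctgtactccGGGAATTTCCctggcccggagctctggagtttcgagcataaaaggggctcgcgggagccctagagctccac
Cxcl2: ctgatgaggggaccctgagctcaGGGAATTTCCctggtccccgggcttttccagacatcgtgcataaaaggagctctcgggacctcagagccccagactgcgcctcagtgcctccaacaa

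Both strands were searched from 250 bases before to 50 bases after the start. The kappaB consensus occurred in 4.51% of 32851 promoters and in 2 of the 8 members with an entry, in each of which matches on both strands overlapped. The AP-1 letters TGANTCA occurred in 7.81% of promoters and in 0 of the 8 members. The TATA letters TATAAA occurred in 13.6% of promoters and in 4 members, Il1b, Tnf, S100a8 and S100a9. These matches describe the letters in the window and were not tested as binding sites.

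Total counts were 14346478 to 17749716 per library, and 16904 genes passed the filter on low counts. Markers of colon epithelium and smooth muscle were present in every library, and pancreatic acinar markers were at or near 0. The 2 libraries model 1 and model 2 stood closer together than the rest, with a common dispersion (the variance between libraries beyond counting noise) of 0.00201 against 0.0604 to 0.351 for the 65 other pairs. They are labelled as separate mice and n = 3 follows those labels, but whether they are 1 mouse or 1 RNA sample sequenced in both libraries cannot be told from the sources used here, and the model group would then have n = 2. Values with these libraries summed into 1 are given beside the comparisons with the model group. Hoxb13, a homeobox gene of the most distal gut, was under 5 CPM in control 3, model 3 and Rhy 1 and at 72.0 to 316 CPM in the other libraries. Values without those 3 libraries are given for DXM against model and, in the other comparisons, only where the sign of a member changed. CPM is the count scaled to the library size after TMM scaling, and FPKM is the count scaled to the library size and the gene length.

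All 10 genes were weakly expressed. Levels can be compared between genes only per length, and on that scale the highest mean over the 12 libraries was 1.78 FPKM for Ccl2, followed by 1.54 FPKM for Il1b, 1.51 for Ptgs2, 1.47 for S100a8, 1.26 for Tnf and 1.11 for S100a9. Cxcl1 had a mean of 0.634 FPKM, Lcn2 of 0.438, Cxcl5 of 0.190 and Cxcl2 of 0.132. Cxcl2 and Cxcl5 failed the filter on low counts, and the other 8 passed. Of these 8, Cxcl1, S100a8 and S100a9 passed only because of the DXM libraries, and Il1b, Tnf, Lcn2, Ptgs2 and Ccl2 passed without them. A count of 0 occurred in 5 libraries for Cxcl2, in 4 for Cxcl5 and in 2 each for S100a8 and S100a9, and in those libraries it allows a level of up to 0.179 to 0.257 CPM (3 counts, counting error only).

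**Figure D1:**
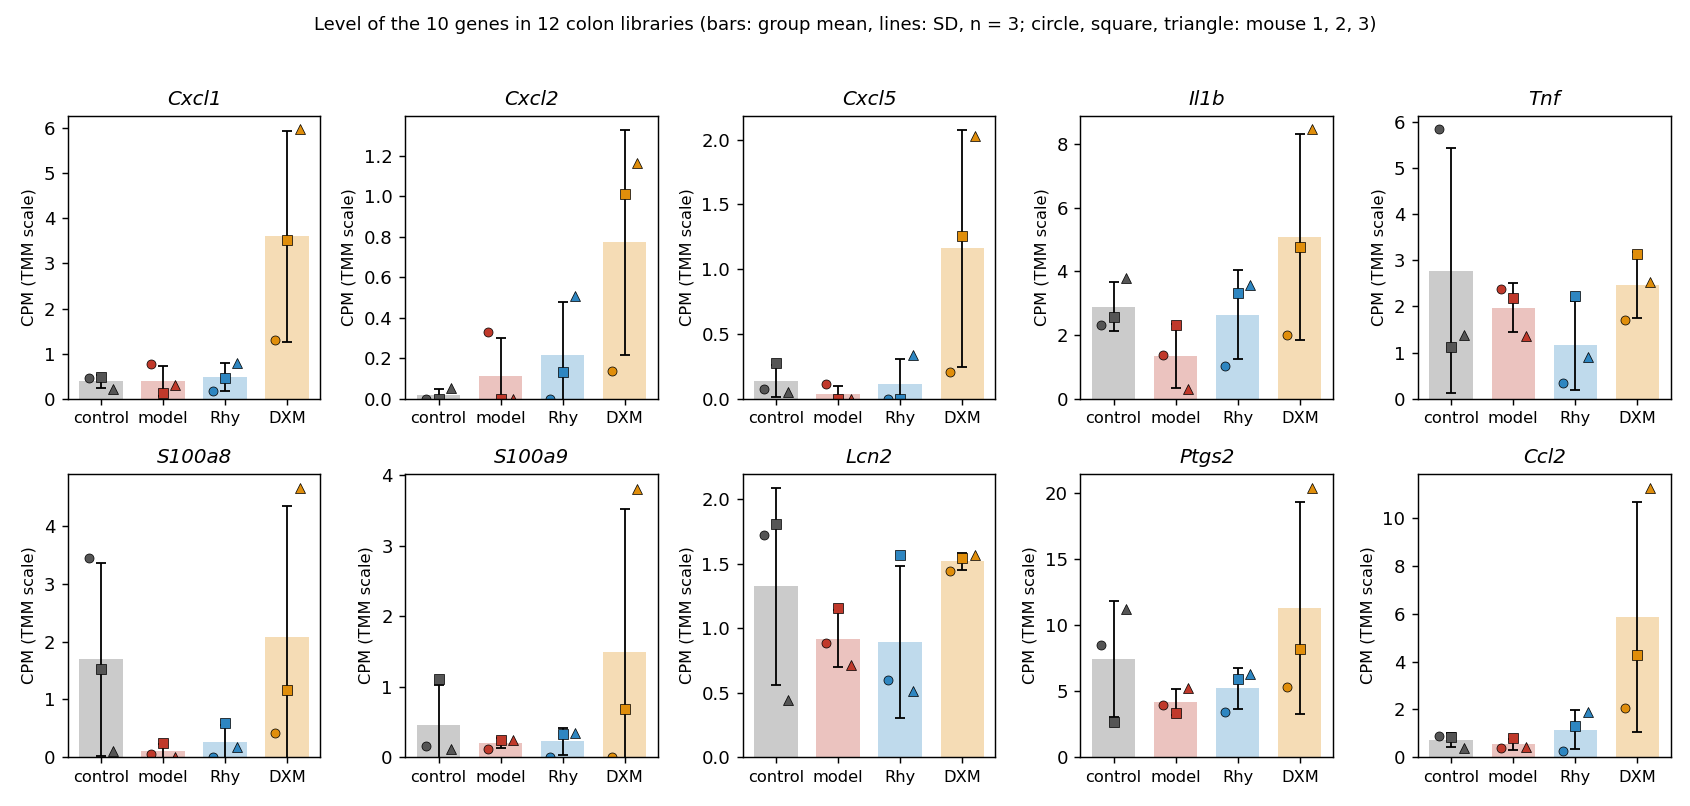
Each panel plots 1 gene, with the 4 groups on the horizontal axis and CPM on the TMM scale on the vertical axis, and each panel has its own scale. Bars are group means, lines are SDs (n = 3) and stop at 0, and the circle, square and triangle are mice 1, 2 and 3. DXM 3 was the highest library for 8 of the 10 genes, the exceptions being Tnf and Lcn2, and for 11.8% of tested genes. Of these 8, Cxcl2 and Cxcl5 were not tested, and Cxcl1, S100a8 and S100a9 passed the filter only through the DXM libraries.

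Among the neutrophil attractants, Cxcl1 had 6, 7 and 4 counts in the control libraries 1 to 3, 14, 2 and 5 in the model libraries, 2, 7 and 14 in the Rhy libraries and 19, 73 and 118 in the DXM libraries. All 3 DXM libraries lay above the other 9, and the control, model and Rhy groups overlapped. The group means were 0.385 ± 0.145, 0.397 ± 0.337, 0.474 ± 0.311 and 3.60 ± 2.34 CPM (SD, n = 3), in that order of groups.

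Cxcl2, which binds the same receptor, had 0, 0 and 1 counts in control, 6, 0 and 0 in model, 0, 2 and 9 in Rhy and 2, 21 and 23 in DXM. Cxcl5, a CXC chemokine made largely by epithelial cells, had 1, 4 and 1 counts in control, 2, 0 and 0 in model, 0, 0 and 6 in Rhy and 3, 26 and 40 in DXM. For both genes DXM 2 and DXM 3 were the highest libraries, while DXM 1 lay within the range of the others. These libraries held 68.8% of all counts of Cxcl2 and 79.5% of those of Cxcl5.

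Ccl2 (ENSMUSG00000035385, chromosome 11, 82035571 to 82037453, plus strand) had 12, 12 and 7 counts in control, 7, 13 and 7 in model, 3, 20 and 33 in Rhy and 30, 89 and 223 in DXM. The means were 0.706 ± 0.280, 0.531 ± 0.224, 1.14 ± 0.817 and 5.88 ± 4.82 CPM (SD, n = 3) in control, model, Rhy and DXM. Each DXM library was above every other library on the CPM scale, the nearest being Rhy 3 at 1.87 CPM against DXM 1 at 2.06 CPM. The annotation places Gm17268 on the opposite strand over Ccl2 and Il1bos over Il1b, and whether the counting used strand is not given in the sources used here.

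Il1b (ENSMUSG00000027398, chromosome 2, 129364570 to 129371139, minus strand), the cytokine that inflammasomes activate, measured 2.32, 2.57 and 3.79 CPM in control, 1.38, 2.31 and 0.298 in model, 1.03, 3.33 and 3.56 in Rhy and 1.99, 4.77 and 8.46 in DXM. The model libraries lay just below the control libraries without overlap, and the Rhy libraries overlapped both. Tnf (ENSMUSG00000024401, chromosome 17, 35199381 to 35202007, minus strand) measured 5.84, 1.11 and 1.37 CPM in control, 2.37, 2.18 and 1.37 in model, 0.342, 2.22 and 0.905 in Rhy and 1.71, 3.13 and 2.53 in DXM. Control 1 was the highest library for Tnf and all groups overlapped.

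S100a8 (ENSMUSG00000056054, chromosome 3, 90668978 to 90670035, plus strand) had 46, 22 and 2 counts in control, 1, 4 and 0 in model, 0, 9 and 3 in Rhy and 6, 24 and 92 in DXM. Its partner S100a9 (ENSMUSG00000056071, chromosome 3, 90692632 to 90695721, minus strand) had 2, 16 and 2 counts in control, 2, 4 and 4 in model, 0, 5 and 6 in Rhy and 0, 14 and 75 in DXM. The partners did not keep a fixed ratio, since control 1 held 46 counts of S100a8 and 2 of S100a9, whereas model 3 held 0 and 4. Lcn2 (ENSMUSG00000026822, chromosome 2, 32384633 to 32388252, minus strand) varied least, at 1.72, 1.81 and 0.439 CPM in control, 0.882, 1.15 and 0.715 in model, 0.599, 1.57 and 0.509 in Rhy and 1.44, 1.54 and 1.57 in DXM.

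Ptgs2 (ENSMUSG00000032487, chromosome 1, 150100031 to 150108227, plus strand) was the member with most counts and measured 8.46, 2.64 and 11.2 CPM in control, 3.92, 3.34 and 5.24 in model, 3.42, 5.88 and 6.28 in Rhy and 5.28, 8.19 and 20.4 in DXM. The control libraries spanned the whole model and Rhy groups, and the lowest DXM library was just above the highest model library.

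The first comparison asked whether DSS moved the genes. In the quasi-likelihood test of edgeR with Benjamini-Hochberg adjustment, none of the 8 tested genes differed between model and control (adjusted p 0.479 to 0.982, threshold 0.05), and 0 of 16904 genes were called (0%). The estimates were below control for 7 of the 8 members and above it for Cxcl1 (50.7% of all tested genes were above), with a member median log2 fold change of -0.68 against 0.0064 over all tested genes. S100a8 was the only member with an unadjusted p under 0.05, at a log2 fold change of -3.99 (SE 1.44, edgeR adjusted p = 0.479). Such a p was reached by 9.62% of all tested genes, and with the model group lower by 4.51%. S100a8 rested on 5 counts in the model group, and its control range of 2 to 46 counts overlapped the model range of 0 to 4. Here and in the comparisons that follow, fewer cells of a type and less RNA per cell cannot be told apart in whole tissue.

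Il1b was the only member whose groups did not overlap, with a mean of 1.33 ± 1.00 CPM in model against 2.89 ± 0.784 in control and a log2 fold change of -1.12 (SE 0.70, edgeR adjusted p = 0.627). Non-overlapping groups occurred for 17% of all tested genes and, with the model group lower, for 6.61%. The exact two-sided permutation test on Il1b gave p = 0.1, the smallest that 3 against 3 can give. Il1b and S100a8 were lower in model in 3 of 3 pairs of same-numbered mice, which the labels do not call paired. For Il1b any pairing gives this result, because its groups did not overlap. With the replicate number as a block, the log2 fold changes of Il1b and S100a8 were -1.06 (edgeR adjusted p = 0.628) and -4.17 (edgeR adjusted p = 0.421). With model 1 and model 2 summed into 1 library they were -1.40 and -4.16 (edgeR adjusted p = 0.885 for each), and with the CPM of these libraries averaged the model mean of Il1b was 1.07 ± 1.09 CPM (SD, n = 2). Without model 2 they were -1.77 and -5.55, without model 3 that of Il1b was -0.71, and without control 1 that of S100a8 was -2.94. The remaining log2 fold changes were -0.84 (SE 0.56) for Ptgs2, -0.51 (SE 0.58) for Lcn2, -0.48 (SE 0.70) for Tnf, -0.39 (SE 0.78) for Ccl2, -1.17 (SE 1.41) for S100a9 and 0.076 (SE 0.80) for Cxcl1. For Cxcl1 the 95% interval of the log2 fold change, not adjusted for the number of genes, was -1.66 to 1.81. Changes within that range in either direction are not excluded at this depth and number of mice. Larger changes could also be missed at the adjusted threshold, since S100a8 at -3.99 did not pass it. The sign for Tnf turned to 0.66 without control 1 and that for S100a9 to 0.59 without control 2.

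With all 3 DSS groups set against control, S100a8 had a log2 fold change of -2.11 (SE 0.94, edgeR adjusted p = 0.280). It was the only member with an unadjusted p under 0.05, which 17% of tested genes had and 9.19% with the DSS groups lower, and 0 genes (0%) were called. The groups of every member overlapped, whereas 3.28% of tested genes did not. Cxcl1 and Ccl2 were above control by 1.22 (SE 0.67, edgeR adjusted p = 0.374) and 1.13 (SE 0.65, edgeR adjusted p = 0.388) on the log2 scale, and both estimates include the DXM libraries. The other 5 lay between -0.62 and -0.13.

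The second comparison asked whether Rhy moved the genes in DSS-treated mice. No member had even an unadjusted p under 0.05, against 3.72% of tested genes, and 0 of 16904 genes (0%) were called by edgeR, with an adjusted p of 1.00 for each member. The estimates were above the model group for 6 members and below it for Tnf and Lcn2 (48.3% of tested genes were above). The groups of every member overlapped (11.5% of tested genes did not), and the median log2 fold change was 0.30 against -0.015 over all tested genes. Il1b had a log2 fold change of 1.00 (SE 0.70, 95% interval -0.53 to 2.53) and Ccl2 of 1.13 (SE 0.76, interval -0.52 to 2.78). Tnf had a log2 fold change of -0.75 (SE 0.71, interval -2.31 to 0.80), with Rhy 1 at 0.342 CPM as the lowest of the 12 libraries. With model 1 and model 2 summed into 1 library the log2 fold changes were 1.27 for Il1b, 1.20 for Ccl2 and -0.65 for Tnf (edgeR adjusted p = 1.00 for each).

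These intervals include 0 and reach beyond 2-fold, so the data set no narrow limit on the difference between Rhy and model for Il1b, Ccl2 or Tnf transcripts. The log2 fold changes were 1.35 (SE 1.56) for S100a8, 0.28 (SE 0.78) for Cxcl1, 0.25 (SE 1.47) for S100a9, 0.32 (SE 0.56) for Ptgs2 and -0.035 (SE 0.59) for Lcn2. Rhy 1 was the lowest library, ties included, for 6 of the 10 members and for 15.2% of tested genes, which leave out Cxcl2 and Cxcl5. For Cxcl2, Cxcl5, S100a8 and S100a9 it tied with other libraries at a count of 0. Alone it was lowest only for Tnf and Ccl2. It was also lowest in summed neutrophil, macrophage and B cell markers (1.63 CPM for B cells) and held 0 counts of Hoxb13. The part of the sampled piece of colon in these values was not tested.

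The third comparison set DXM against the model group. At adjusted p under 0.05, edgeR called 0 members and 0 of 16904 genes (0%). Cxcl1, S100a8 and S100a9 could be tested only because they were high in the DXM libraries, so their being higher here is not counted. The 5 members that passed the filter without those libraries, Ccl2, Il1b, Ptgs2, Lcn2 and Tnf, were all estimated higher in DXM (48.5% of all tested genes were), with a median log2 fold change of 1.44 against -0.015 over all tested genes. Of these, Ccl2, Il1b and Ptgs2 had an unadjusted p under 0.05, against 7.69% of tested genes in either direction and 4.89% higher.

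Ccl2 was 11-fold higher in DXM than in model (log2 fold change 3.46, SE 0.77, edgeR adjusted p = 0.622) and ranked 12 of 16904 genes by p. Cxcl1 was 8.86-fold higher (log2 fold change 3.15, SE 0.76, edgeR adjusted p = 0.622). S100a8 was 19.9-fold higher (log2 fold change 4.31, SE 1.44, edgeR adjusted p = 0.622), on 5 counts in the model group. None of the 3 passed the adjusted threshold, and Cxcl1 and S100a8 had passed the filter only through the DXM libraries.

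Il1b was 3.82-fold higher (log2 fold change 1.93, SE 0.71, edgeR adjusted p = 0.630) and Ptgs2 was 2.71-fold higher (log2 fold change 1.44, SE 0.56, edgeR adjusted p = 0.637). The estimates for S100a9 (log2 fold change 2.89, SE 1.36), Lcn2 (0.72, SE 0.58) and Tnf (0.32, SE 0.69) had larger p-values, with edgeR adjusted p of 0.653, 0.757 and 0.931. The DXM libraries lay above the model libraries without overlap for 3 of the 5 members that passed the filter without them, Ccl2, Ptgs2 and Lcn2. The same held for Cxcl1 and S100a8, which had passed the filter through the DXM libraries and are not counted. Among tested genes, 22.6% did not overlap and 10.4% did so with DXM higher. The estimate for Tnf was the smallest of the 8, with a 95% interval of -1.19 to 1.83 on the log2 scale.

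Cxcl2 and Cxcl5 were tested in a fit of the 29984 genes with any count. In DXM against model both had an unadjusted p under 0.05 there, with an edgeR adjusted p of 0.353 for Cxcl5 and 0.787 for Cxcl2. No fold is given for either, because the model group held 2 counts of Cxcl5 and 6 counts of Cxcl2, the latter all in model 1.

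**Figure D2:**
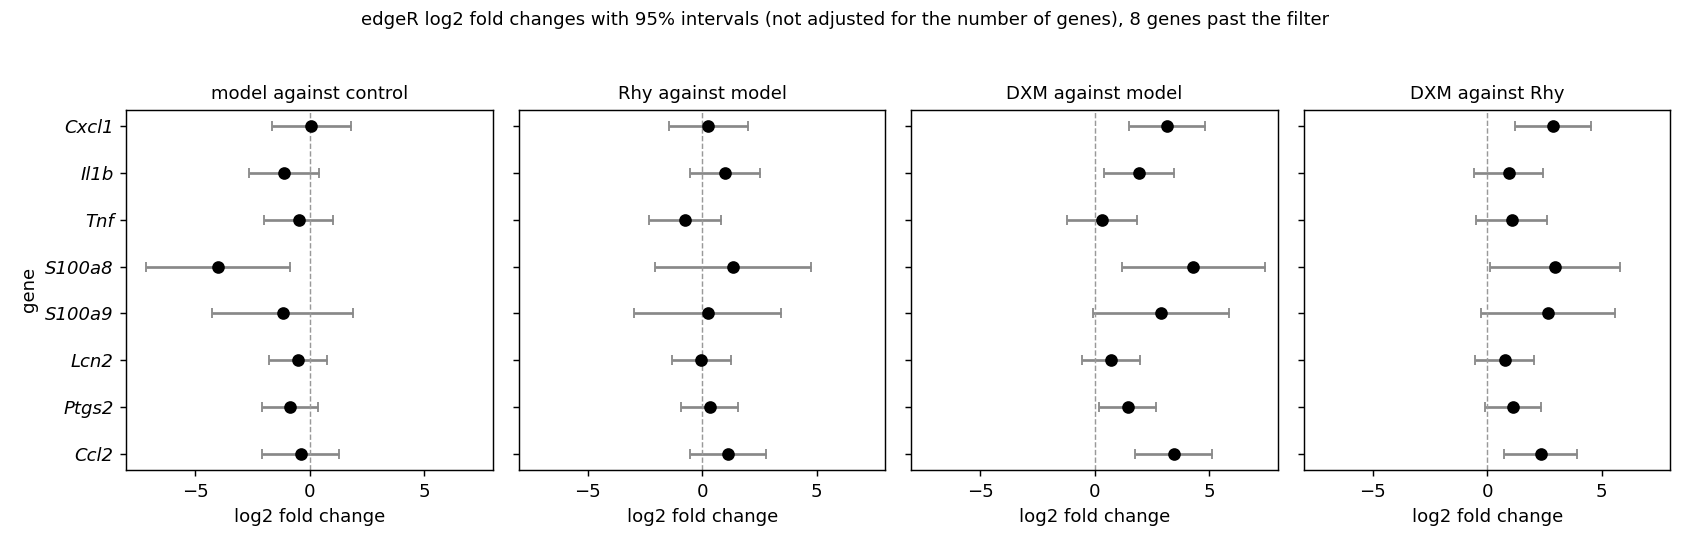
Points are edgeR log2 fold changes of the 8 genes that passed the filter, and lines are their 95% intervals, not adjusted for the number of genes, in 4 comparisons. In DXM against model the intervals of Cxcl1, Ccl2, S100a8, Il1b and Ptgs2 lie above 0, and in Rhy against model all 8 intervals include 0. Cxcl1, S100a8 and S100a9 had passed the filter only through the DXM libraries.

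The DXM label was looked at in 6 genes that glucocorticoids often induce, chosen after their values were seen. In DXM against model, Fkbp5, Tsc22d3, Zbtb16 and Sgk1 had log2 fold changes of -0.63, -0.33, -0.70 and -0.20, Per1 of 0.39 and Dusp1 of 1.33, with edgeR adjusted p-values of 0.622 to 0.931. These values do not set the DXM libraries apart from the model libraries, and the label is used as given.

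The high values of the DXM group came mostly from mice 2 and 3. These libraries held 70.5% of all counts of Cxcl1, 68.4% of Ccl2, 68.5% of S100a9 and 55.5% of S100a8, but 27.7% of Tnf and 27.6% of Lcn2. They were the highest pair for 5 of the 10 members, of which Cxcl2 and Cxcl5 were not tested. Of the 8 tested members this held for 3, Cxcl1, Il1b and Ccl2, and for 2.79% of tested genes. Cxcl1 had passed the filter only through the DXM libraries. DXM 3 alone was the highest library for 8 of the 10 and for 11.8% of tested genes. Among members that passed the filter without the DXM libraries it was highest for Il1b, Ptgs2 and Ccl2, but not for Tnf and Lcn2. Without DXM 3 the log2 fold changes against model were 2.57 for Ccl2, 2.57 for Cxcl1, 2.93 for S100a8, 1.35 for Il1b, 0.70 for Ptgs2 and 0.84 for S100a9, all with an edgeR adjusted p of 1.00. The largest moves in the other direction came from the model libraries for Cxcl1, at 4.06 without model 1, for S100a8, at 5.86 without model 2, and for Il1b, at 2.58 without model 2. Without DXM 1 the values were 3.86 for Ccl2, the highest for that gene, and 3.46 for S100a9.

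With model 1 and model 2 summed into 1 library, the log2 fold changes in DXM were 3.53 for Ccl2, 3.20 for Cxcl1, 4.48 for S100a8, 2.21 for Il1b and 1.35 for Ptgs2 (edgeR adjusted p = 0.934 for each). In the libraries with Hoxb13 at 5 CPM or more they were 3.34 for Ccl2, 2.99 for Cxcl1, 3.79 for S100a8, 1.49 for Il1b and 1.66 for Ptgs2. DESeq2, run on the same counts, called 51 genes in DXM against model with all libraries and 590 with only the groups compared. Ccl2 (DESeq2 adjusted p = 0.0102 and 3.38e-05) and Cxcl1 (DESeq2 adjusted p = 0.0266 and 0.00151) were among them in both, and S100a8 only in the second (DESeq2 adjusted p = 0.159 and 0.00528). Cxcl1 and S100a8 had passed the filter through the DXM libraries, so their calls are not counted.

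DXM was also set against Rhy, the other drug given with DSS. Cxcl1 was 7.31-fold higher in DXM (log2 fold change 2.87, SE 0.75), Ccl2 was 5.03-fold higher (2.33, SE 0.72) and S100a8 was 7.80-fold higher (2.96, SE 1.30), each with an edgeR adjusted p of 0.830. Without DXM 3 the log2 fold changes were 2.30 for Cxcl1, 1.45 for Ccl2 and 1.58 for S100a8. Without Rhy 2 that of S100a8 was 4.33, and without Rhy 3 those of Cxcl1 and Ccl2 were 3.45 and 2.87. No gene was called (0 of 16904, 0%). Of the 5 members that passed the filter without the DXM libraries, all were estimated higher in DXM than in Rhy (51.5% of tested genes were) and 1, Ccl2, had an unadjusted p under 0.05, against 5.02% of tested genes in either direction and 2.8% higher. Ccl2 was also the only one of the 5 without overlap, against 12.2% of tested genes in either direction and 7.45% with DXM higher. Cxcl1 and S100a8, whose p was also under 0.05, had passed the filter through the DXM libraries. Both comparisons with DXM share the same 3 DXM libraries and are not independent. The remaining log2 fold changes, for Ptgs2 (1.12), S100a9 (2.65), Tnf (1.07), Il1b (0.93) and Lcn2 (0.76), had unadjusted p-values over 0.05.

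Summed levels of cell type markers were read beside these values. The 15 neutrophil markers summed to 68.1 to 757 CPM in control, 96.9 to 233 in model, 59.6 to 418 in Rhy and 236 to 376 in DXM. Ly6g and Cd177 held most of this, Ly6g at 682, 33.8 and 2.42 CPM in control, 116, 117 and 30.0 in model, 24.2, 322 and 146 in Rhy and 197, 204 and 270 in DXM, and Cd177 at 30.9 to 168 CPM over the 12 libraries. The other 13, set apart after their values were seen, summed to 49 to 73 counts in control, 27 to 55 in model, 7 to 75 in Rhy and 69 to 172 in DXM. Elane, the neutrophil elastase gene, was at 0 in every library, Mpo (myeloperoxidase) reached 5 counts and Cxcr2 reached 8. Of the 5 neutrophil markers that could be tested, 0 were called in any comparison.

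The 12 macrophage and monocyte markers summed to 208 to 399 CPM in control, 228 to 235 in model, 82.3 to 444 in Rhy and 297 to 744 in DXM. In DXM against model 6 of the 12 had an unadjusted p under 0.05, all higher, and 9 did not overlap, with DXM higher. Over all tested genes these shares were 4.89% and 10.4%. The 8 fibroblast markers summed to 585 to 1052, 552 to 599, 437 to 1725 and 969 to 1993 CPM in the same order. Of these, 7 of the 8 had an unadjusted p under 0.05 in DXM against model, all higher, against 4.89% of tested genes. DXM 3 was the highest library for both lists, and DXM 2 was the lowest DXM library for both. Cxcl1 and Ccl2 were higher in DXM 2 than in DXM 1. Colon epithelium markers summed to 34025 CPM in DXM 1, 20254 in DXM 2 and 19783 in DXM 3. For these markers DXM 2 and DXM 3 were the lowest of all libraries.

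Of the 10 smooth muscle markers, all were estimated higher in DXM than in model (48.5% of tested genes were). An unadjusted p under 0.05 was reached by 4 (4.89% of tested genes, with DXM higher), and 5 did not overlap (10.4%). Summed levels in control, model, Rhy and DXM were 3744 to 7299, 4318 to 5653, 6606 to 7483 and 5944 to 10550 CPM for smooth muscle and 27370 to 43805, 25293 to 32583, 29396 to 36387 and 19783 to 34025 CPM for colon epithelium. T cell markers summed to 33.6 to 57.5, 34.7 to 48.4, 11.1 to 32.2 and 21.3 to 43.9 CPM, and B cell markers to 11.5 to 220, 135 to 179, 1.63 to 123 and 156 to 186 CPM. Mast cell markers summed to 18.4 to 80.1, 26.3 to 36.3, 25.3 to 26.8 and 38.7 to 45.8 CPM, plasma cell markers to 542 to 1010, 418 to 789, 478 to 866 and 533 to 1077 CPM, and fat cell markers to 17.1 to 90.8, 21.2 to 228, 26.6 to 106 and 41.3 to 65.5 CPM. Acinar markers stayed at or under 0.300 CPM.

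The share of mitochondrial counts was 25.7% in DXM 1, 7.88% in DXM 2 and 7.48% in DXM 3, against 11.1% to 14% in model. The part of these cell type markers and of the mitochondrial share in the chemokine values was not tested.

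**Figure D3:**
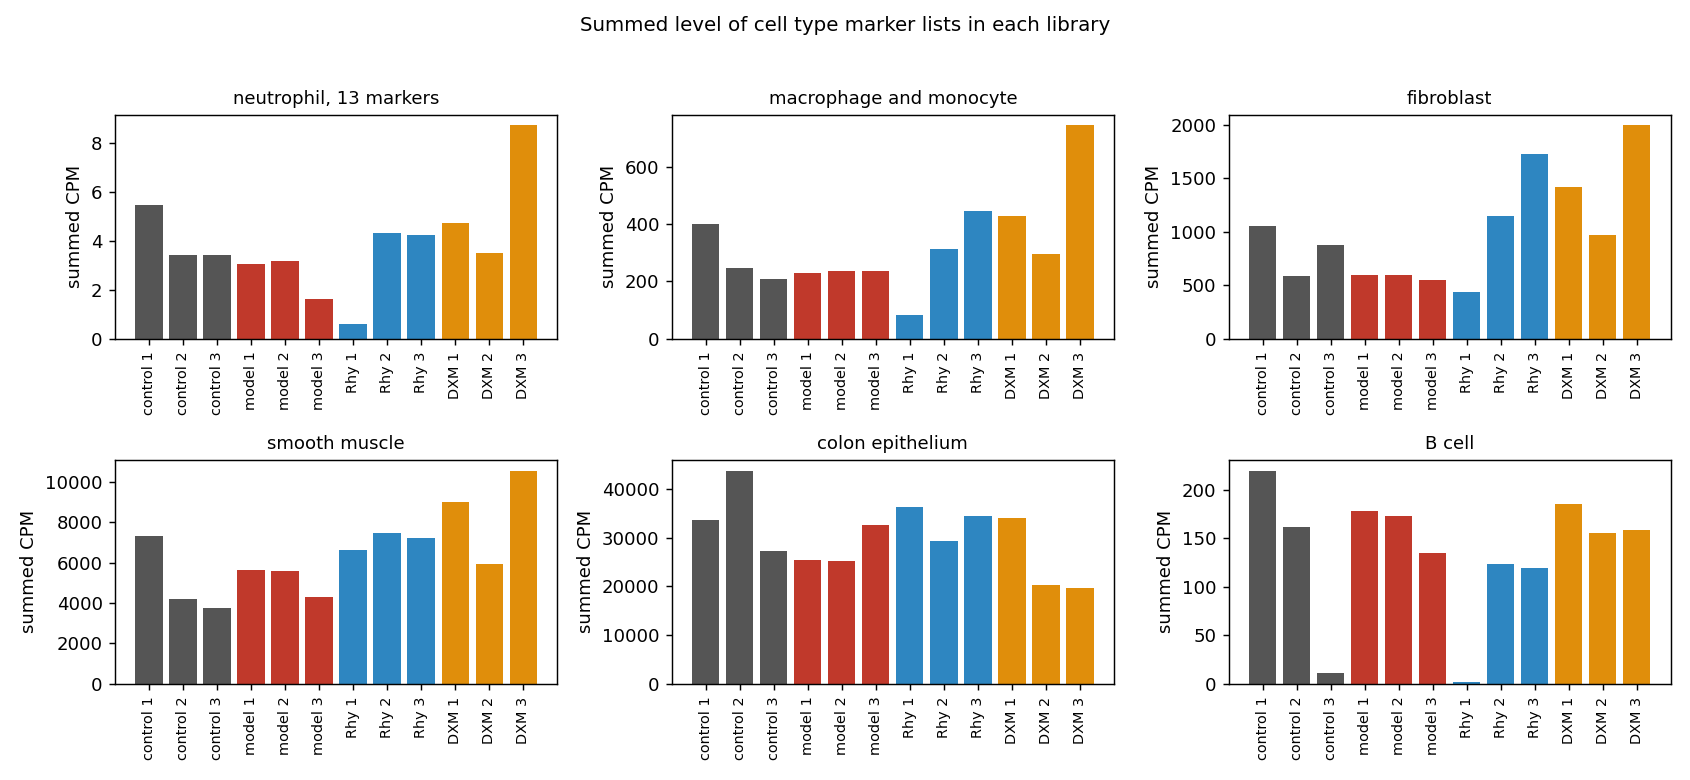
Bars are the summed CPM (TMM scale) of 6 marker lists in each of the 12 libraries, colored by group, and each panel starts at 0 with its own scale. DXM 3 was highest for the 13 neutrophil markers (8.71 CPM), the macrophage and monocyte markers and the fibroblast markers, while Rhy 1 was lowest for these lists and for B cell markers. The 13 leave out Ly6g and Cd177 and were set apart after their values were seen. With all 15 neutrophil markers control 1 was highest at 757 CPM, and DXM 3 was at 354 CPM.

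The genes around the attractants were read from lists written from general knowledge, and edgeR called 0 genes of any list in any comparison. In the neutrophil chemokine axis 9 of 17 genes could be tested. Those that could not held few counts in all 12 libraries together, with 11 for Cxcl3, 23 for Ppbp, 19 for Cxcr2, 5 for Csf3 (the neutrophil growth factor), 13 for Il17a, 29 for Il17f, 58 for Il23a and 0 for Cxcr1. In DXM against model 5 of the 9 had an unadjusted p under 0.05, all higher, against 4.89% of tested genes with DXM higher. They were Pf4, the platelet chemokine (log2 fold change 2.58, SE 0.70, 1.85 CPM in model and 11.2 in DXM), Cxcl12, the stromal ligand of Cxcr4 (1.55, SE 0.47), the scavenging receptors Ackr1 (1.63) and Ackr3 (2.13), and Il22, the epithelial repair cytokine.

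Il22 had 2, 3 and 0 counts in control, 0 in each model library, 0, 13 and 2 in Rhy and 2, 31 and 35 in DXM. Its highest libraries, DXM 2 and DXM 3, were those of Cxcl2 and Cxcl5. Outside the DXM libraries only Rhy 2 held more than 3 counts of Il22. Il22 could be tested only because it was high in DXM 2 and DXM 3. Its being higher in DXM was thus fixed by the filter, and it is to be left out of the 5 of 9 above. Il17rc, a subunit of the interleukin 17 receptor and the most abundant gene of this list, was at 282 CPM in control and 156 in model (log2 fold change -0.86, SE 0.36, edgeR adjusted p = 0.495).

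In the monocyte chemokine axis 12 of 15 genes could be tested, Ccl3, Ccl4 and Csf2 being too low. In DXM against model 3 were higher and 1 lower at an unadjusted p under 0.05 (7.69% of tested genes in either direction and 4.89% higher). Ccl11, the eosinophil attractant eotaxin, was 4.93-fold higher (13.3 against 2.69 CPM, log2 fold change 2.30, SE 0.55, edgeR adjusted p = 0.622), with log2 fold changes of 1.30 for Csf1, the macrophage growth factor, and 1.14 for Ccl12, a ligand of Ccr2. Cx3cl1, or fractalkine, was the lower gene (-0.74). Ccl11 also had a log2 fold change of 1.17 in Rhy against model (edgeR adjusted p = 1.00). Cx3cr1, the fractalkine receptor of resident macrophages, was at 7.95 CPM in control and 2.52 in model (log2 fold change -1.65, SE 0.63). In DXM against Rhy the smallest p was that of Ackr2, a scavenger of CC chemokines (log2 fold change 1.34). For Ccl5, a T cell product, the smallest p came from all DSS groups against control (log2 fold change -1.25).

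In the interleukin 1 list 13 of 15 genes were tested, and none had an unadjusted p under 0.05 in DXM or Rhy against model. Casp1, the protease that activates Il1b, was at 216 CPM in control and 136 in model (log2 fold change -0.67, SE 0.28). Gsdmd, the pore protein that releases Il1b, was at 255 ± 156 CPM in control and 161 ± 21.7 in model (SD, n = 3). Control 1 was its highest library at 432 CPM. Irak4, a kinase of the receptor, was lower without overlap in Rhy and in DXM than in model (log2 fold change -0.32 and -0.37, unadjusted p over 0.05). In the TNF list all 10 genes were tested, and Map3k8, a kinase needed for Tnf production, had a log2 fold change of 1.26 (SE 0.48) in DXM against model, while the receptor Tnfrsf1a stayed between 84.6 and 104 CPM in every library. The adaptor Tradd was at 143 ± 42.9 CPM in control and 106 ± 4.99 in model (SD, n = 3). Lta, which encodes lymphotoxin alpha, was at 1.60 ± 0.575 CPM in model and 0.779 ± 0.472 in Rhy.

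The 13 genes that NF-kB induces or that restrain it were all tested. In model against control 3 had an unadjusted p under 0.05, all lower (4.51% of all tested genes were). Zfp36, which marks Tnf mRNA for decay, was at 174 CPM in control and 92.9 in model without overlap (log2 fold change -0.90, SE 0.24, edgeR adjusted p = 0.459), Tnip1 had a log2 fold change of -1.04 and Relb of -0.72. In the drug comparisons none of the 13 had such a p, and the smallest belonged to Nfkbiz in Rhy against model (log2 fold change -0.72), Vcam1 in DXM against model (0.49) and Icam1, an adhesion molecule for leukocytes, in DXM against Rhy (0.75).

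Among the other S100 genes S100a4 was too low to be tested, with 64 counts in all libraries against 209 for S100a8 and 130 for S100a9. S100a6, S100a10, S100a11, S100a16 and S100g each held more counts than that pair, and none of the 5 had an unadjusted p under 0.05 in a drug comparison. S100a6 averaged 2145 ± 1549 CPM in control and 1625 ± 263 in model, and S100a10 averaged 955 ± 581 and 667 ± 17.0 (SD, n = 3). For both genes control 1 was the highest of all libraries, and control 3 lay below every model library. S100a11 was at 58.7 CPM in control and 117 in model (log2 fold change 0.99, SE 0.43). The receptor gene Ager was at 4.67 ± 3.92 CPM in control, with control 1 at 9.14, and at 1.92 ± 0.784 in model (SD, n = 3). Ly96, a cofactor of the receptor Tlr4, was at 1.81 ± 0.537 CPM in model and 2.69 ± 0.763 in DXM.

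Among 9 tested siderophore and acute phase genes, Hamp, which encodes the iron hormone hepcidin, was 5.81-fold higher in DXM than in model (log2 fold change 2.54, SE 1.00) without overlap. Hp, or haptoglobin, was 7.27-fold higher in DXM than in Rhy (2.86, SE 0.86, edgeR adjusted p = 0.830). Slc22a17, the receptor of lipocalin 2, was lower in Rhy than in model without overlap (7.21 against 11.3 CPM, log2 fold change -0.65). The most abundant genes of this list were Fth1, a ferritin subunit at 1964 to 3860.0 CPM in group means, and Pigr, the carrier of secretory antibodies at 2127 to 2534 CPM.

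In the prostaglandin list 15 of 16 genes were tested. Slco2a1, the transporter that clears prostaglandins, was at 186 CPM in control and 71.9 in model without overlap (log2 fold change -1.37, SE 0.38, edgeR adjusted p = 0.459). Hpgd, which degrades prostaglandins, was at 317 ± 176 CPM in control and 185 ± 69.2 in model (SD, n = 3). No gene of the list had an unadjusted p under 0.05 in DXM or Rhy against model, the smallest being those of Tbxas1 (1.05 in DXM) and of the prostacyclin receptor Ptgir (-0.65 in Rhy). Ptges3, a synthase, averaged 80.6 CPM in control and 117 in model.

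In the interleukin 6 family Il6 held 18 counts in all libraries together. The 8 tested genes were all estimated higher in DXM than in model (48.5% of tested genes were). An unadjusted p under 0.05 was reached by 3 (4.89% of tested genes, with DXM higher). The receptor subunits Il6ra (log2 fold change 0.96, SE 0.39) and Il6st (0.48, SE 0.20) were among the 3, together with the cytokine Osm (2.08, SE 0.94). Osm had 19 and 11 counts in control 1 and control 2 and at most 9 in the other libraries outside DXM. Osm could be tested only because of the DXM libraries, so it is to be left out of both the 8 and the 3. Stat3, which carries their signal, averaged 134 CPM in model and 146 in DXM, and its feedback gene Socs3 39.4 and 62.7 CPM.

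Across 11 samples, with model 1 and 2 summed, the levels of the 8 tested members were compared pair by pair on the log2 CPM scale. These samples share the groups and the depth of each library, and the values are descriptions. The median Pearson correlation of the 28 pairs was 0.59 (range 0.04 to 0.97). Cxcl1 and Ccl2 were the closest pair at 0.97 (Spearman 0.93), and at 0.93 without the 2 samples farthest from the median. S100a8 followed Lcn2 (0.81) more closely than its partner S100a9 (0.66), and Lcn2 with Ptgs2 had the lowest value (0.04). Without the 2 farthest samples the median was 0.41, and the correlation of Cxcl1 with S100a9 fell from 0.67 to 0.056.

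**Figure D4:**
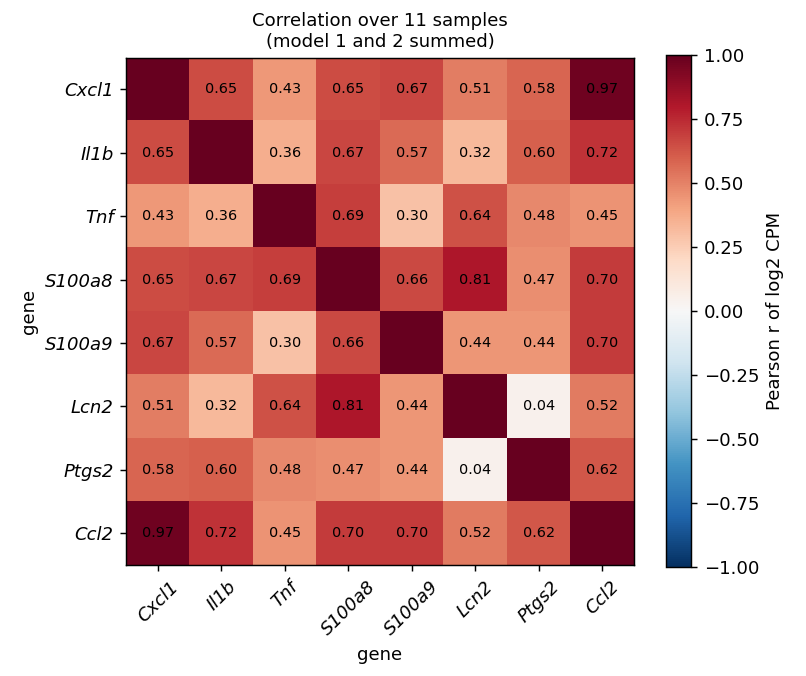
Cells are Pearson correlations of log2 CPM between the 8 genes past the filter over 11 samples, colored from -1 to 1. Cxcl1 and Ccl2 form the darkest pair at 0.97, and Lcn2 with Ptgs2 the palest at 0.04.

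The genes most like each member were also read over those 11 samples. After Ccl2, Cxcl1 was nearest to Cmtm7 (0.92) and Ndufb2 (0.91), and Ccl2 to Gas1 (0.94) and Sema3a (0.94). S100a8 was nearest to Insig1 (0.95), 2700097O09Rik (0.92) and Fdft1 (0.89), and S100a9 to Iglv2 (0.87) and Gm10382 (0.85). Tnf was nearest to Srms (0.96), Aoc2 (0.93) and Lbp (0.92), Il1b to Riok1 (0.92), Arsj (0.90) and Gm4924 (0.90), Lcn2 to Tspoap1 (0.92), 1700029J07Rik (0.91) and Adgrb1 (0.90), and Ptgs2 to Rnd1 (0.94), Nt5dc3 (0.92) and Thbs1 (0.90).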

How the data were processed

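RNA was sequenced from colon sections of 12 mice in 4 groups of 3, as labelled. The authors deposited whole-number read counts per gene without normalization, and FPKM values made from the same counts by dividing by gene length and 1 constant per library (100% of 261930 values within 0.1%). The submitters' processing notes name HISAT2 2.0.5, featureCounts 1.5.0-p3, DESeq2 1.16.1 and mm10. Coordinates matched GENCODE M21 for 98.3% of 54409 shared identifiers.

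Differences in counts were tested with edgeR 4.0.16 under R 4.3.3, by a two-sided quasi-likelihood test (glmQLFit, glmQLFTest) of the 12 libraries in 1 fit after TMM scaling and filterByExpr with a minimum count of 10, with Benjamini-Hochberg adjustment over 16904 genes in each comparison. Standard errors were derived from the F statistic. Alternatives were RLE scaling, no filter beyond 1 count, a fit of only the groups compared, a replicate block, DESeq2 1.42.0, limma 3.58.1 on log2(FPKM + 0.1), model 1 and 2 as 1 library, a term for Hoxb13 under 5 CPM and each library left out. The code was tested on simulated data. Log2 CPM for correlations used a prior count of 2. Nothing says that mice of a group were kept separately, so p-values measure the spread between these samples.

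The members and lists were chosen with earlier results of these data known. Pathway genes are named where they had the 2 highest mean CPM of a list or the smallest p in a comparison, and the further genes given with an unadjusted p under 0.05 were added after their values were seen. The 3 genes most correlated with each member are also named, except 1 that is not reported here. Deviations from group means of same-numbered mice correlated at 0.210, 0.104 and 0.363 between control and model. Each is over 0.1, so the numbers were treated as pairing these groups, which the labels do not state. The main fit had no block, as designed, and the block was an alternative. Floors at a count of 0 cover counting error only, while intervals of fold changes include the spread between libraries.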

Additional observations from a re-analysis of the deposited data

How the results depend on the processing

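edgeR called 0 genes in each of the 5 comparisons. With the replicate block, edgeR again called 0 genes in each, with 1820, 626, 1244, 773 and 2970 genes at an unadjusted p under 0.05 when model was compared with control, Rhy with model, DXM with model, DXM with Rhy and the DSS groups with control, where the unblocked fit had 1626, 628, 1300, 848 and 2882. The block changed no call. Between model and Rhy the same-numbered mice correlated at -0.231, 0.142 and -0.198, and between model and DXM at -0.0146, -0.0892 and -0.139, so there the mice share only a number. DESeq2 with all libraries called 46, 5, 51, 9 and 748 genes in that order of comparisons, and with only the groups compared it called 167, 44, 590 and 27 in the first 4. Genes with any count gave 1 call in model against control and 44 in the DSS groups against control. Only the groups compared gave 1 call in model against control and 2 in DXM against model. limma on FPKM gave 2 calls in Rhy against model and 2 in DXM against model. Only libraries with Hoxb13 at 5 CPM or more, a setting added after the data were seen, gave 2 calls in DXM against model and 361 in the DSS groups against control. Leaving out 1 library gave 0 to 1 calls in model against control and in Rhy against model (1 without model 3), 0 to 0 in both DXM comparisons and 0 to 41 in the DSS groups against control (41 without DXM 1, 1 without DXM 3). The cause of these differences was not tested.

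Of 672 values of the members under the alternatives, 637 kept direction and call, 30 changed sign and 5 passed the threshold, all of these in DXM against model under DESeq2. Among these 5 were values of Cxcl1 and S100a8, which had passed the filter through the DXM libraries. For Rhy against model, the log2 fold change of S100a9 was -0.13 with the replicate block, -0.26 with limma and -0.041 with the Hoxb13 term, and that of Lcn2 was 0.040 with model 1 and 2 as 1 library and 0.047 in libraries with Hoxb13. For model against control, that of Cxcl1 was -0.13 with limma and -0.086 in libraries with Hoxb13. For DXM against model, that of Tnf was -0.081 with the Hoxb13 term. For the DSS groups against control, those of Il1b and Ptgs2 were 0.35 and 0.16 in libraries with Hoxb13. Leaving out 1 library turned the sign within these ranges: in model against control Cxcl1 -0.83 to 0.49, Tnf -0.86 to 0.66 and S100a9 -1.66 to 0.59, in Rhy against model Cxcl1 -0.31 to 1.18, S100a8 -0.015 to 2.90, S100a9 -0.15 to 0.74 and Lcn2 -0.72 to 0.26, and in the DSS groups against control Tnf -1.0 to 0.52, S100a9 -0.81 to 1.63, Lcn2 -0.71 to 0.016, Il1b -0.36 to 0.098 and Ptgs2 -0.65 to 0.18. No sign changed in DXM against Rhy under any alternative run, and in DXM against model only that of Tnf did. With 3 mice a group and under 10 counts of Cxcl1, Cxcl2, Cxcl5, S100a8 and S100a9 in many libraries, depth limits what these comparisons can show.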
